A study of Rattus norvegicus with 6 samples.

Results

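To describe REST binding far from annotated genes in quiescent and proliferating neural stem cells, intergenic REST sites whose nearest annotated transcription start site (TSS) was over 100 kb away, and which were not annotated to a repeat, were taken from the ChIP-seq peak tables of HCN cells. HCN cells are a cultured line established from neural stem cells of the adult rat hippocampus. TAP cells were proliferating in FGF2, and quiescent iQNP cells had received BMP4 in the continued presence of FGF2. In each condition, 1 library was made with a commercial REST antibody (antibody 1), 1 with REST14 and REST17, homemade antibodies used as a mix (antibody 2), and 1 from input. A site in the tables was called with both antibodies. Columns were tied to an antibody by the number in the peak set names of the tables (RestQNP1 was taken as antibody 1), which the labels do not state directly. If that number meant something else, each commercial value below would be a homemade value and the reverse. The distal intergenic sites numbered 384 of 1775 in iQNP (21.6%) and 172 of 778 in TAP (22.1%), and made up 389 distinct sites over both conditions. Before repeats were removed there were 438 and 190, so that 54 and 18 sites were left out for lying in a repeat. Depths, in units of 1000000 tags and from total over normalized tags, ranged from 25.2 to 29.8 over the 4 ChIP libraries.

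REST, or repressor element 1-silencing transcription factor, binds a long DNA element through its zinc fingers and recruits corepressors that remove active histone marks. It is best known for silencing neuronal genes, such as those for channels, receptors and synaptic proteins, outside neurons and in neural progenitors. REST also binds at long distances from annotated promoters, where the gene that responds, if there is one, cannot be read from position alone. Here a site carries the name of the gene with the nearest annotated TSS, which states position and not regulation.

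The strength of distal intergenic sites was close to that of all REST sites in iQNP and somewhat lower in TAP. In iQNP their median was 18.1 normalized tags (tags in the peak per 10000000 tags in the library), with 20.6 for the commercial and 15.4 for the homemade antibodies, against a median of 17.85 over all 1775 sites. The sites ranged from 4.83 to 168 tags, with quartiles of 10.9 and 27.8. In TAP the median was 11.2 tags, with 12.1 and 10.3 by antibody and a range from 5.51 to 91.25, against 12.55 over all 778 sites. It was the lowest TAP median of any class of sites, the others running from 12.15 at introns to 18.45 at promoter-TSS sites. The difference between the medians of the antibodies was larger than the difference between the distal sites and all sites in both conditions. The focus ratio, the fraction of tags that lie on the strand and side of the peak where a single bound position would put them, had medians of 0.875 and 0.874 in iQNP, against 0.870 and 0.867 over all sites. Widths of the distal iQNP sites ran from 51 to 101 bp, with a median of 65 bp, against 66 bp at the other iQNP sites. Calls of both antibodies were merged within 50 bp, so the width depends on how far apart the calls lay. It does not measure the extent of binding.

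The commercial antibody gave more normalized tags than the homemade antibodies at 342 of the 384 iQNP sites (89.1%) and at 111 of the 172 TAP sites (64.5%). Over all sites these shares were 83.3% and 73.4%. This order was less common at the 13 iQNP sites annotated to CpG islands, as the plot of both antibodies shows. At 8 of these 13 sites, though not at the 3 strongest, the homemade antibodies gave more tags, against 33 of the 371 other distal sites (8.89%). On the log2 scale, commercial over homemade tags had a median of -0.25 in CpG islands and 0.44 elsewhere. CpG-annotated iQNP sites of the other classes lay between, with more homemade tags at 23 of 70 (32.9%). At the 262 promoter-TSS sites in iQNP the commercial antibody gave more tags at 48.1%, with a median log2 ratio of -0.03. Each antibody has 1 library per condition, so that antibody and library cannot be told apart.

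**Figure D1:**
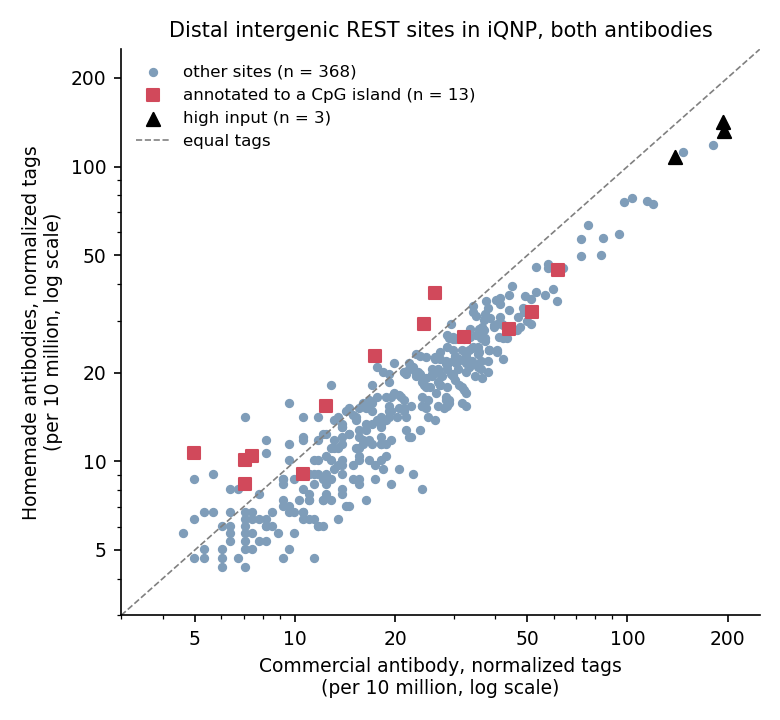
Normalized tags (per 10000000 tags) at the 384 distal intergenic iQNP sites, commercial antibody on the x axis and homemade antibodies on the y axis, both on a log scale, 1 point per site. Most points lie below the dashed line of equal tags, while 8 of the 13 CpG-annotated sites (squares) lie above it, and the 3 sites with high input (triangles) lie at the upper right.

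Among the CpG-annotated sites, the strongest lay near Pafah1b1, which encodes the dynein regulator LIS1, at chr10:61899350-61899406 (rn4, as all coordinates here) with 61.7 and 44.7 normalized tags for the commercial and homemade antibodies. The next lay near Map2, a microtubule-associated protein of dendrites, with 51.8 and 32.2 tags, and near Hspb8 with 44.0 and 28.2. At the site near Zbtb21, a zinc finger transcription factor, the order was turned, with 26.3 commercial and 37.3 homemade tags. Sites near Dapk2, a death-associated kinase (24.5 and 29.2), Ptch1, the hedgehog receptor (17.4 and 22.8), and C10h17orf58 (12.4 and 15.4) also had more homemade tags. The same order held near Smim20 (7.45 and 10.4), Mirlet7f2 (7.09 and 10.1), Sipa1l1 (4.97 and 10.7) and Med28 (7.09 and 8.39). Near Retnlg (32.3 and 26.5) and Gdf6, a bone morphogenetic protein family ligand (10.6 and 9.07), the commercial antibody gave more. Only the sites near Pafah1b1 and Map2 had a TAP site, or 2 of 13 (15.4%; 95% Wilson interval, 4.33 to 42.2). Outside CpG islands 167 of 371 distal sites did (45.0%; 40.03 to 50.1). Of the CpG-annotated iQNP sites of other classes, 24 of 70 did (34.3%), a share within the interval of the 13. Intervals of shares cover counting error only, and sites are not replicates of a condition.

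Input was low at nearly every distal intergenic site. The input tags, scaled to the depth of the ChIP library, had a median of 2.45 in iQNP, against 2.90 over all iQNP sites. At 3 iQNP sites and 1 TAP site the scaled input exceeded 5 times the median of all sites of the condition, and these 4 calls lay at 3 positions in a single gap between genes on chromosome 16, between Cpe, the prohormone-processing enzyme carboxypeptidase E, and Tll1, a tolloid-like metalloprotease. At chr16:27376659-27376709, nearest to Cpe, the scaled input was 98.2 and 95.8 tags, and the fold over input was 5.58 and 4.42. At chr16:27947439-27947505, nearest to Tll1, the scaled input was 64.2 and 63.9 tags and the fold 8.64 and 6.15. At chr16:27309831-27309896, again nearest to Cpe, the input was 30.2 and 26.9 tags and the fold 13.1 and 11.9. These were the 2 strongest and the fifth strongest distal sites in iQNP by normalized tags, with means of 168, 163.9 and 123.6, yet their folds over input were far below the 108 and 88.2 of the next site in rank, near Ptp4a3. The other distal iQNP sites had at most 8.75 scaled input tags, as seen in the plot of input against fold. The same gap held 2 further REST sites, in L2 repeats, with a scaled input of 41.6 and 43.9 tags at chr16:27550201-27550260 and of 101.0 and 102.8 at chr16:27940358-27940413. All 5 iQNP sites of the gap, which span 638 kb, and all 3 TAP sites had high input, and they were 5 of the 12 high-input sites of the iQNP table and all 3 of the TAP table. The part of the input in their tags was not tested. Without the 3 sites the iQNP median was 18 normalized tags.

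**Figure D2:**
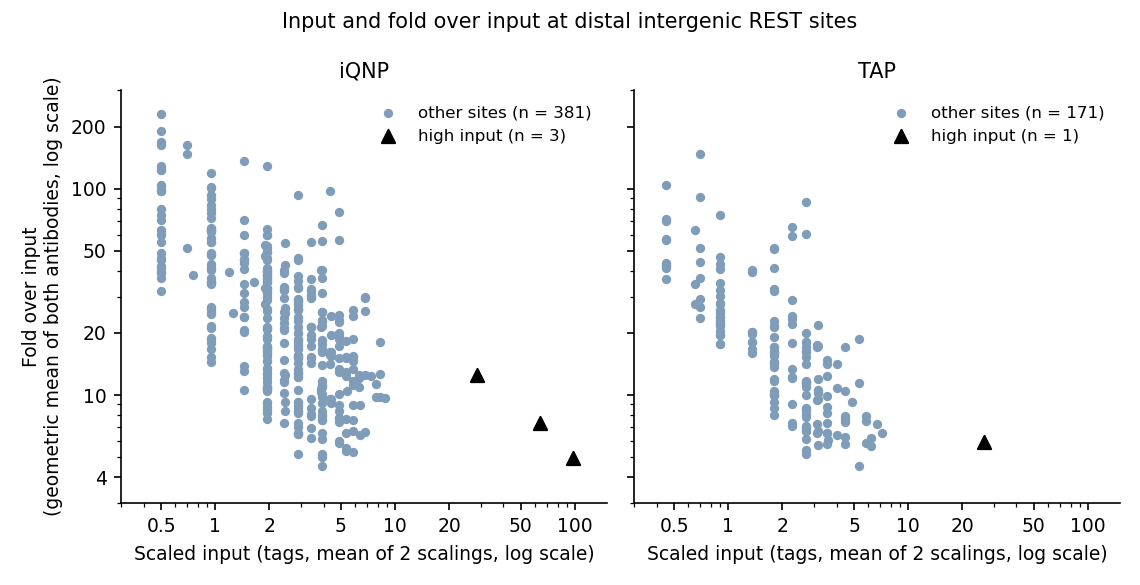
Scaled input tags (x axis, mean of the scalings to both ChIP libraries) against fold over input (y axis, geometric mean of both antibodies) at distal intergenic sites in iQNP (left, 384 sites) and TAP (right, 172 sites), both axes on a log scale. The high-input sites (triangles, 3 in iQNP and 1 in TAP) stand apart at the right, and all other sites have at most 8.75 (iQNP) or 7.15 (TAP) input tags.

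Aside from the Cpe and Tll1 sites, the strongest distal iQNP site lay at chr7:111786548-111786602, 324 kb downstream of Ptp4a3, a protein tyrosine phosphatase. In iQNP it had 180.6 commercial and 118.2 homemade normalized tags. In TAP, where it ranked first, it had 100.3 and 82.2. It was followed at chr12:40970567-40970619, 319 kb upstream of the kinase gene Taok3, by a site with 146.5 and 112.1 tags in iQNP and 70.8 and 57.2 in TAP. In the later rat assembly GRCr8, Suds3 and Srrm4 lie next to Taok3, and Srrm4 encodes a splicing activator of neurons. The site near Lig4, the DNA ligase of end joining, at chr16:85230652-85230709 had 119.2 and 74.5 tags in iQNP and 42.0 and 32.2 in TAP. Sites near Matn1, a cartilage matrix protein (114.2 and 76.6 in iQNP, 63.4 and 40.5 in TAP), and Zc3h12a, an RNase (97.9 and 75.9, 68.8 and 46.1), came next to a pair of sites upstream of Cdk4, the cyclin-dependent kinase of G1. The Cdk4 site at chr7:66592706-66592774 had 102.9 and 77.9 tags in iQNP and 18.7 and 12.3 in TAP. Its neighbour 87.5 kb away, at chr7:66680172-66680239, was weaker in iQNP with 84.4 and 57.4 tags but stronger in TAP with 43.2 and 34.9. Both Cdk4 sites lay far from its annotated TSS, at 337 and 424 kb. In GRCr8 Cdk4 is flanked by Marchf9 and Tspan31, and whether another gene lies nearer to these sites there was not tested. The tenth site, near the proteasome subunit gene Psma7, had 94.0 and 59.1 tags in iQNP. In TAP the 10 strongest sites also included those near Mvb12b, a subunit of the sorting complex ESCRT (36.9 mean tags), Pafah1b1 (35.9) and Foxk1, a forkhead factor (30.25). At each shared site named here both iQNP libraries lay above both TAP libraries. In the edgeR test described further on, the first Cdk4 site and the Lig4, Psma7 and Foxk1 sites passed the threshold, while Taok3 (log2 fold change 1.02), Cpe (1.02), Matn1 (0.88), the second Cdk4 site (0.86), Mvb12b (0.85), Ptp4a3 (0.71), Zc3h12a (0.60) and Pafah1b1 (0.56) did not. With the antibody as a block these 8 sites passed as well.

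A TAP site with its centre within 50 bp was found for 169 of the 384 iQNP sites (44.0%; 95% Wilson interval, 39.1 to 49.0), against 42.6% of all iQNP sites. The share was 47.2% for intergenic sites within 100 kb of a TSS, 51.6% for introns and 24.05% for promoter-TSS sites. From the TAP side, 168 of 172 distal sites had an iQNP site (97.7%). Centres of the 169 pairs lay a median of 12.5 bp apart and at most 48.5 bp. In 167 pairs both sites were distal intergenic sites outside repeats. The iQNP sites near Ido1 and Galc were paired with TAP sites whose centres fell in a repeat, and the TAP site near Msl3l2 with an iQNP site in a repeat.

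Pairing followed the strength of the site. The median was 27.15 normalized tags where a partner was found in TAP and 11.95 where none was, a difference of 1.18 on the log2 scale (commercial antibody 1.32, homemade mix 1.11). None of the 46 distal sites with up to 8 tags had a TAP site, which allows a share of up to 7.71% (upper Wilson limit). Of the 66 sites with 8 to 12 tags, 3 had one (4.55%). The share rose to 34.7% of 95 sites with 12 to 20 tags, 74.1% of 158 with 20 to 50 and 84.2% of 19 with over 50. At the other iQNP sites the shares in these classes were 0.532%, 3.50%, 32.4%, 74.95% and 86.3%, within the intervals of the distal sites, as the plot of shares by tag class shows. The fewest tags at any called site were 12 in each library, which in TAP corresponds to 4.67 and 4.76 normalized tags. The lowest fold over input at a called TAP site was 4.05 and 4.06 by antibody. A call in TAP therefore depended on the input as well as on the tags. TAP tags at sites called in iQNP alone were not analysed here, so a site without a partner is one that was not called in TAP, and REST may still have been bound below the limit of detection.

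**Figure D3:**
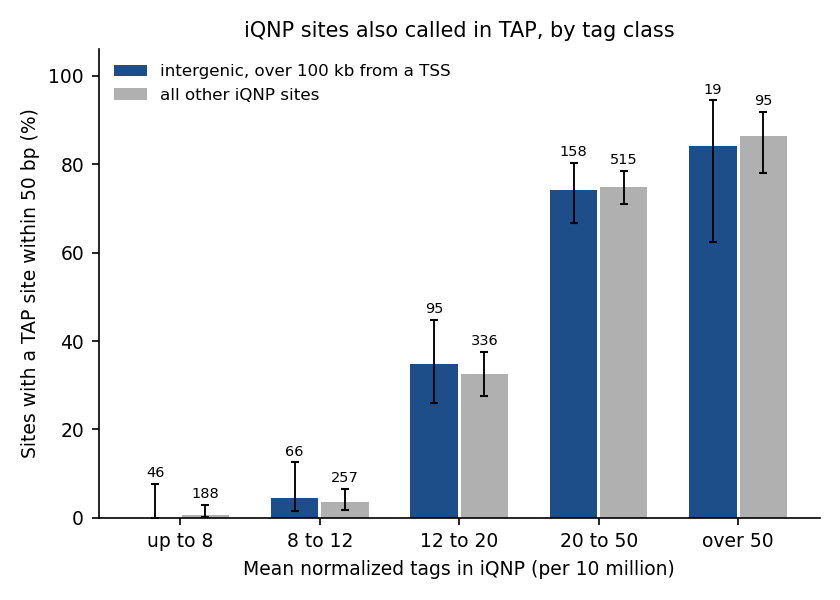
Share of iQNP sites with a TAP site within 50 bp (y axis, percent) by mean normalized tags in iQNP (x axis, per 10000000), for the 384 distal intergenic sites (dark bars) and all other iQNP sites (grey bars). Error bars are 95% Wilson intervals and the numbers above are sites per class, and both kinds of site rise from near 0 up to 8 tags to 84.2% and 86.3% over 50.

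Some strong sites had no partner. Of the 19 distal iQNP sites with over 50 tags, 3 had no TAP site, namely the high-input sites near Cpe and Tll1 and a site near Terf2ip, a telomere protein, at chr19:42105240-42105294. The fold over input in iQNP was 5.58 and 4.42 at this Cpe site and 8.64 and 6.15 at the Tll1 site. The lowest called fold in TAP was 4.05 and 4.06. The other high-input sites of the gap were called in TAP. Why the Cpe and Tll1 sites without a partner were not called there was not tested. The Terf2ip site had 72.7 and 56.7 normalized tags, a scaled input of 3.8 and 3 and a fold over input of 54.3 and 56.5. The next strongest without a partner lay near Chst1, a keratan sulfate sulfotransferase (49.3 and 36.3 tags), and Sgsm1, a regulator of small G proteins, at chr12:44229317-44229381 (45.1 and 39.3). Another site near Sgsm1, at chr12:44226468-44226541, had 56.4 and 36.6 tags in iQNP and was called in TAP, with 24.5 and 20.2. On the TAP side, 4 distal sites had no iQNP site, near Rps15a, a ribosomal protein (10.1 and 10.7 tags), Pcbd1, a biopterin dehydratase and coactivator (7.39 and 6.35), Tcl1a (6.22 and 5.56) and the pheromone receptor gene Vom2r47 (4.67 and 6.35). These 4 lay below the TAP median of 11.2.

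At the shared sites, REST tags in iQNP exceeded those in TAP. With the commercial antibody the 169 sites had medians of 32.6 (iQNP) and 12.1 (TAP) normalized tags, and with the homemade antibodies 21.8 and 10.3. On the log2 scale the ratio of iQNP to TAP had a median of 1.18, which was 1.27 for the commercial antibody and 1.03 for the homemade mix (SD 0.17, n = 2 antibodies). Over all 756 shared sites it was 1.04. Tags were higher in iQNP with both antibodies at 168 of the 169 sites, against 745 of all 756 shared sites. The exception among the distal sites lay near Prelid2. Both iQNP libraries lay above both TAP libraries at 163 sites (96.4%), against 92.7% of all shared sites. Shared sites are those called in TAP as well, so these ratios leave out the 215 distal sites not called there.

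Total tags were tested with edgeR's quasi-likelihood method, the library sizes being the depths. At an adjusted p under 0.05, 133 of the 169 shared distal sites (78.7%) were higher in iQNP, against 68.4% of all 756 shared sites. With the depths as library sizes, none was higher in TAP by edgeR (0 also at an unadjusted p under 0.05) or by DESeq2. Over all 756 shared sites these counts were 0 as well. DESeq2 with its own size factors also gave 0 distal sites, against 3 of all shared sites, with 83 distal adjusted p not given. Among the other classes the share higher in iQNP by edgeR was 66.7% for intergenic sites within 100 kb and 70.4% for introns. It was 50.8% for promoter-TSS sites, 77.8% for sites in repeats and 38.2% for the 34 sites of the remaining annotations. Differences between classes were not tested. With the antibody as a block, 165 of the 169 distal sites passed, against 94.8% of all shared sites. When the libraries were scaled by TMM, which sets the typical shared site to no change, the median over all shared sites fell from 1.05 to -0.01, and the median of the distal sites became 0.13. Under this scaling 14 distal sites had more tags in iQNP and 5 in TAP, against 5.16% and 6.75% of all shared sites. The median of the distal sites lay above that of all shared sites under both scalings, which differ by a similar amount at every site. Without the commercial TAP library the median log2 fold change of the distal sites was 1.27, against 1.18 over all shared sites. Without the homemade TAP library these medians were 1.05 and 0.94. Each of these fits left 1 TAP library, whose spread cannot be estimated, so sites past the threshold are not counted.

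**Figure D4:**
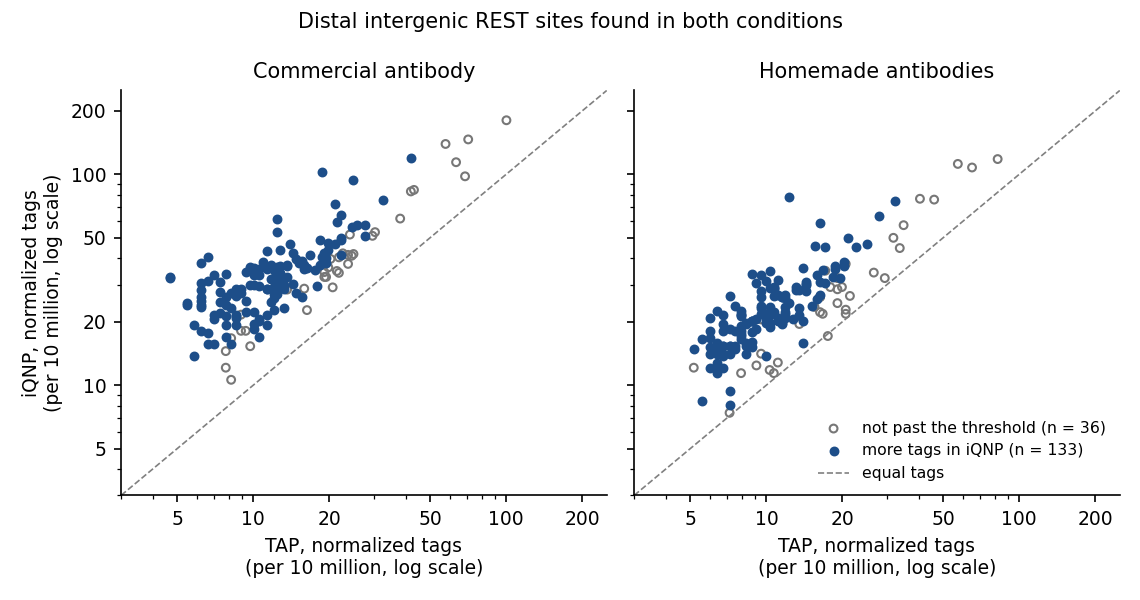
Normalized tags (per 10000000) in TAP (x axis) and iQNP (y axis) at the 169 shared distal intergenic sites for the commercial (left) and homemade (right) antibodies, log scales, 1 point per site. Filled points are the 133 sites with more tags in iQNP by edgeR, open points the other 36, and nearly all points lie above the dashed line of equal tags, the strongest nearer to it than many weak ones.

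The largest difference was at the Cdk4 site at chr7:66592706-66592774, whose values are given above. Its log2 fold change was 2.54 (edgeR, adjusted p = 7.981e-05; the ratios of the antibodies differed by an SD of 0.14). The site near Tafa5, a secreted chemokine-like protein of the brain, had 38 and 33.2 tags in iQNP and 6.22 and 9.53 in TAP, a log2 fold change of 2.17. Near Actr3b, an actin-related protein, 61.4 and 34.9 tags in iQNP stood against 12.4 and 10.3 in TAP (2.07). The sites near Klhl25, an adaptor of a ubiquitin ligase (2.06), Dab1, the reelin adaptor (1.99), Aqp8, a water channel (1.97), Runx1t1, a transcriptional corepressor (1.94), and a weaker Ptp4a3 site at chr7:111703407-111703457 (1.90) followed. Among these 8 sites the antibodies differed most at Klhl25, Dab1 and Aqp8, with log2 ratios of 2.80 and 1.19, 2.61 and 1.32, and 2.79 and 1.14 for the commercial and homemade antibodies. Under TMM the log2 fold changes of the 8 sites ran from 0.86 at Ptp4a3 to 1.49 at Cdk4. TMM lowered all shared sites by a similar amount. The 8 sites were chosen for the largest changes by depth, so their direction could not turn under TMM and is no support. Their TAP values lay mostly near the lowest that were called, with 12 commercial tags at Klhl25 and Aqp8. At the other end, the 5 sites with more tags in TAP under TMM lay near Zc3h12a, Pafah1b1, Med27, Prelid2 and Cimap1c (named after their values were seen), with log2 fold changes by depth from 0.39 at Cimap1c to 0.60 at Zc3h12a and from -0.67 to -0.45 under TMM.

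The ratio varied little with the strength of a site. The log2 ratio between conditions had a median of 1.13 at the 36 shared distal sites with up to 20 iQNP tags, 1.20 at the 117 with 20 to 50 and 1.01 at the 16 with over 50. By distance it was 1.08 at 100 to 250 kb (85 sites), 1.23 at 250 to 500 kb (48 sites) and 1.28 beyond 500 kb (36 sites), with the same order for both antibodies except that the homemade value beyond 500 kb was 1.13, against 1.15 at 250 to 500 kb. These medians differed by about as much as the antibodies did within a class.

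The sites lay a median of 248 kb from the nearest TSS in iQNP and 240 kb in TAP, 195 downstream and 189 upstream of it in iQNP. Strength fell little with distance. The median was 20.1 normalized tags at 194 iQNP sites between 100 and 250 kb, 18 at 105 between 250 and 500 kb, and 17.1 at 77 between 500 and 1000 kb. The shares with a TAP site were 43.8%, 45.7% and 44.2%. At 8 sites over 1 Mb away the median was 10.4, and 2 had a TAP site. The farthest, 5.42 Mb upstream of Cntnap5b, a contactin-associated protein, had 24.1 and 15.4 tags and was shared. The 6 without a TAP site lay near Ddx18 (21.3 and 16.1 tags), Kcnk9 (12.4 and 9.07), Sh2d4b (12.8 and 7.39), the cadherin gene Cdh8 (9.22 and 8.73), Eif4g2 (7.45 and 6.72) and the kainate receptor gene Grik2 (7.09 and 6.72). Just inside the distance limit in iQNP were the sites near Ncs1 (100124 bp, 30.95 tags) and Sgsm1 (100463 bp, 42.2), and just outside were those near Crygf (97861 bp, 11.3) and Mkln1 (97717 bp, 6.74). In TAP, sites near Ncs1 (100123 bp, 12.75 tags) and Sgsm1 (103288 bp, 22.35) lay inside and those near Sorcs3 (97331 bp, 11.75) and Tti1 (97310 bp, 45.3) outside.

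Distal intergenic sites were spread over 21 chromosomes, from 4 on chromosome 20 and on chromosome X to 40 of the 136 iQNP sites on chromosome 7. Their nearest REST site of any class was a median of 302 kb away, against 219 kb over all iQNP sites, and 86 (22.4%, against 19.1%) had no other site within 1 Mb. The most isolated lay near Arap2 on chromosome 14, 10647 kb from any other site, and was called in TAP as well. Others came in groups. Joined when their centres were within 100 kb, 101 iQNP sites formed 43 loci, of which 11 held 3 or more sites and none more than 4. In TAP 26 sites formed 11 loci.

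The 384 iQNP sites named 298 genes as nearest, 49 of them for 2 or more sites and 11 for 4 or more. Kcnk9, a background potassium channel, was nearest to 7 sites between 358 and 1342 kb downstream, 2 of them with a TAP site, and the strongest had 44.0 and 36.6 tags in iQNP and 12.8 and 18.7 in TAP. The closest pair of distal sites was among these, 0.423 kb apart. Psma7 was nearest to 6 sites, 5 of them shared, and 3 of these lay within 10.1 kb at chr3:168339500-168349691. Their values were 57.5 and 45.3, 94.0 and 59.1, and 24.8 and 15.1 tags in iQNP, and 25.7 and 17.1, 24.9 and 16.3, and 7.39 and 8.74 in TAP. In GRCr8 Psma7 lies between Lsm14b and Ss18l1, and genes farther out are Taf4 and Cdh4, a neuronal cadherin, on one side and Mtg2 and Hrh3 on the other. Neighbours in GRCr8 are named for some loci only and were picked from several per side. They are no test of an excess of neuronal genes.

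Hspb8, a small heat shock protein, was nearest to 5 sites with 15.9 to 36.1 mean tags. They continued the row of sites upstream of Taok3, and in GRCr8 Srrm4 lies between the 2 genes. Only 1 of these 5, and 1 of the 3 Taok3 sites, had a TAP site. All 4 sites near Ptp4a3 were shared, with means of 28.55, 34, 33.55 and 149.4 tags in iQNP and 13.95, 9.04, 13.55 and 91.25 in TAP. Slc15a4, a histidine and peptide transporter, was nearest to 5 sites of 7.62 to 49.45 tags over 799 kb, of which 2 were shared, and in GRCr8 its neighbours include the transmembrane genes Tmem132c and Tmem132d. Podxl, a sialomucin, was nearest to 5 sites of 10.8 to 31.05 tags with 2 shared, and in GRCr8 its neighbours include Mkln1 and the semaphorin receptor gene Plxna4. Tafa5 and Brd1, a chromatin reader, neighbour each other apart from Zdhhc25 and together held 8 sites of 9.33 to 45.4 tags with 4 shared. Thy1, a surface glycoprotein of neurons, held 4 sites of 8.85 to 40.15 tags with 2 shared, and Cpped1, a phosphatase, held 4 of 6.02 to 21.45 tags with 1 shared. The plot of genes with several sites shows shared sites up to 946 kb from the TSS (Slc15a4), while the farthest site, at Kcnk9, had no TAP site.

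**Figure D5:**
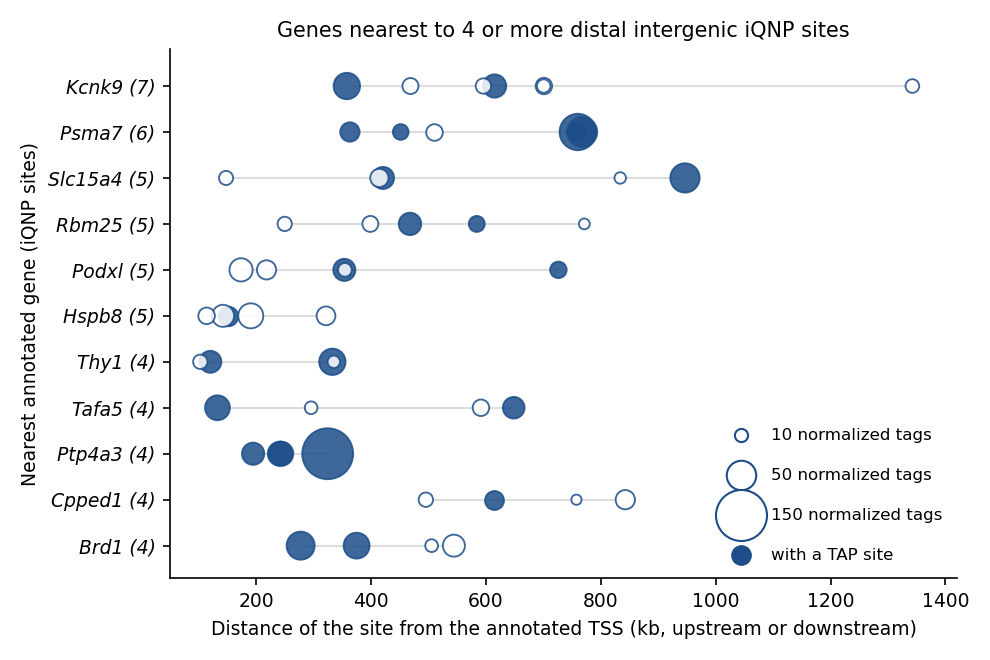
Sites at the 11 genes nearest to 4 or more distal intergenic iQNP sites (number of sites in brackets), placed by their distance from the annotated TSS (x axis, kb), with the area of a circle proportional to mean normalized tags in iQNP and filled circles for sites with a TAP site. All 4 Ptp4a3 sites and 5 of 6 Psma7 sites are filled, against 2 of 7 at Kcnk9 and 1 of 5 at Hspb8.

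The name Rbm25, a splicing factor, stood at 5 iQNP sites on chromosome 10, of 6.76 to 29.05 mean tags and 2 of them shared. In GRCr8 Rbm25 is on another chromosome, and a related locus, Rbm25l1, lies on chromosome 10 beside Rbfox1, a neuronal splicing regulator, and Eef2kmt. In all, 12 iQNP sites and 6 TAP sites carried a gene that GRCr8 places on another chromosome, the others being Irx2, Irx1 (at 2 sites), Tent4a, Aph1b, Crnkl1-ps1 and Eif4g2. The nearest gene was found in GRCr8 for 383 of the 384 sites, for 48 of them under a newer symbol. Without the 12 sites, 372 remained.

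The nearest genes included several families known as REST targets. The lists were drawn up from the annotated names, so their sizes are no test. Of the distal iQNP sites, 24 were nearest to 15 genes of ion channels and transmitter receptors, 12 with a TAP site (50%) and a median of 17.45 tags. The strongest was 113 kb downstream of Drd1, a dopamine receptor, with 48.6 and 33.2 tags. It was followed by the strongest Kcnk9 site, Kcnd3, a potassium channel of the A type (41.5 and 30.9), and Kcnmb2, a subunit of calcium-activated potassium channels (35.1 and 31.2). Adhesion and axon guidance genes had 27 sites, 11 shared (40.7%), with a median of 17.55 tags, led by the adhesion receptor Adgrb1 (72.7 and 49.7), the synaptic adhesion gene Igsf21 (64.2 and 45.3), Thy1 (51.1 and 29.2) and Cdh26 (38.7 and 30.6). Transcription factors had 28 sites with a median of 22 tags, and 18 were shared (64.3%). These were led by Foxk1 (75.9 and 63.5), Dmrta2 (42.2 and 26.2), Zbtb21 and Pax5 (36.2 and 26.2). Dmrta2, a factor of cortical patterning, had 3 shared sites within 37.7 kb, and its neighbour in GRCr8 is Elavl4, an RNA-binding protein of neurons. Synaptic, secretory and vesicle genes had 15 sites, 9 shared (60.0%), with a median of 23.55 tags, led by the high-input Cpe sites, then Tafa5 and Grip1, a scaffold of glutamate receptors (42.2 and 22.2). The medians of these lists stand beside 18.1 tags and a shared percentage of 44.0 over all distal sites.

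MicroRNA genes were nearest to 7 distal iQNP sites, 1 of them shared, with a median of 7.31 tags. The site downstream of Mir202 at chr1:199647431-199647493 had 36.5 and 19.1 tags in iQNP and 12.4 and 7.94 in TAP. A site upstream of Mir30d had 31.9 and 23.8 tags and no TAP site, and a second Mir30d site had 9.22 and 4.70. The others were weak, near Mirlet7f2 (7.09 and 10.1 tags), Mir128-2 (9.58 and 5.04), Mir135a (8.16 and 6.04) and Mir672 (7.45 and 5.04). The products of 5 of these genes are shown to name what lies nearest, 1 arm of each, from RefSeq on GRCr8, with the seed (bases 2 to 8) in capitals.
miR-202-3p: aGAGGUAUagcgcaugggaaa
let-7f-5p: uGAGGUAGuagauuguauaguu
miR-672-5p: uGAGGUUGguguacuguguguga
miR-128-3p: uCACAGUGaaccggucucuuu
miR-135a-5p: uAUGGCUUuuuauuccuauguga
No seed was shared among the 10 mature sequences of these genes, while the seeds of miR-202-3p, let-7f-5p and miR-672-5p began with the same 5 letters. The let-7 family is known for repressing growth genes during differentiation, and miR-128 for its abundance in brain. Expression of the microRNAs was not measured in the tables used here.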

How the data were processed

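REST ChIP-seq of quiescent (iQNP) and proliferating (TAP) HCN cells was analysed, 1 library per antibody and condition with 1 input per condition. The authors aligned reads to rn4 with Bowtie2, called peaks with HOMER against the input (Poisson p-value at most 1e-04) and merged those of both antibodies within 50 bp. The deposited total tags are counts. The deposited normalized tags (per 10000000) and scaled input tags are a signal, the deposited focus ratio is a fraction, fold over input and over local background are a deposited ratio, the peak score is a deposited score, and the p-value against input was also deposited. Classes, nearest genes and distances came from the annotation that accompanies the tables, from which 1 repeated line per condition was dropped. Gene names and neighbouring genes were updated by gene ID or accession to GRCr8.

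An iQNP and a TAP site formed a pair when their centres lay within 50 bp, each site being used once and the closest taken first. Tags of all 756 shared sites were compared with edgeR (version 4.0.16, R 4.3.3; quasi-likelihood test, depths as library sizes, condition only, Benjamini-Hochberg adjustment over all of them). DESeq2 (1.42.0) was an alternative. The replicate number is the antibody, and p-values measure only the spread between the libraries of the antibodies, which may be technical. An exact permutation of 2 libraries against 2 has 1 in 3 as its smallest two-sided p. On simulated data of 756 sites, 96% of 100 sites changed by 1 on the log2 scale and 100% of 100 changed by 2 were recovered, and 6.22% of calls were unchanged sites. The simulated spread was smaller than the coefficient of variation of 0.21 that edgeR estimated in these data. The simulation held no difference between antibodies, and as many sites rose as fell. Its recovery therefore does not describe the test on these data.

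Sites, lists and tests were chosen with earlier results of these data known. Named sites were the 10 strongest per condition, the 8 or fewer shared sites with the largest change in each direction, the 5 strongest without a TAP site, TAP sites without an iQNP site, sites over 1 Mb away (1 of these is not reported here), genes nearest to 4 or more sites, CpG-annotated and high-input sites, the 4 strongest of each list and those next to the distance limit. No sequence of the sites was used, since an rn4 genome was not at hand.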

Additional observations from a re-analysis of the deposited data

How the results depend on the processing

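Of 131 alternative values of 19 results, 99 kept their direction and their side of the threshold or stayed within the limit set for a count or value, 13 moved, 19 fold changes of named sites kept their direction but no longer passed, and 0 turned. Fold changes of single sites were followed only at the 8 sites with the largest iQNP excess, whose direction TMM could not turn. Other shared distal sites did fall below 0 under TMM, as at Zc3h12a, Pafah1b1, Med27, Prelid2 and Cimap1c. With a limit of 250 kb, 190 iQNP and 83 TAP sites remained. The share of iQNP sites with a TAP site was 33.6% with centres within 25 bp. It was 36.8% of the 321 sites with a fold over input of at least 8, a limit set in both conditions. With fold over input in place of tags, the log2 difference between sites with and without a TAP site was 0.92 and the log2 ratio between conditions had a median of 0.91. Under TMM the ratio was 0.13, with 14 distal sites having more tags in iQNP and 5 in TAP, against 39 and 51 of all 756 shared sites. DESeq2 with its own size factors called 1 distal site higher in iQNP, against 3 of all 756, with the adjusted p of 83 distal sites not given. With the depths it called 131 distal sites, against 509 of all 756. A minimum of 20 tags left 88 of 119 sites. Leaving out 1 library in turn, 0 to 166 sites were higher in iQNP and 0 in TAP. The 0 were without either TAP library, where the lone TAP library is assumed to vary like the iQNP libraries. By antibody, the median ratio ran from 1.03 to 1.27. The cause of these changes was not tested.

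With the antibody as a replicate block, 165 distal sites had more tags in iQNP, against 94.8% of all shared sites. None had more in TAP, which held for all shared sites. The correlation of deviations within the 2 antibody pairs was 0.0445 over all shared sites and -0.0213 over the distal ones. It is blind to an offset between antibodies that all sites share, so it cannot decide whether the libraries are paired. The labels name no culture or day that the libraries of a pair share beside the antibody. The coefficient of variation estimated by edgeR was 0.21 without the block and 0.09 with it. Alternatives without the high-input sites, and without sites named for a gene on another chromosome, were chosen after seeing the data. With 1 library per antibody and condition, and with sites of low tag number, small differences between sites are not detectable.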
